A study of Homo sapiens with 2 samples.

Results

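The SLC16 genes encode monocarboxylate transporters, and 9 of them were followed together with BSG, which encodes the chaperone basigin, in RNA recovered with an antibody against ZMAT2. The 10 genes (SLC16A1, SLC16A3, SLC16A4, SLC16A5, SLC16A6, SLC16A7, SLC16A9, SLC16A10, SLC16A13 and BSG) were taken by name from a table of 56303 genes. They were selected on the measured ratio of IP over Input, in that SLC16A7 had the lowest one among well-counted mRNAs, so all ratios of the 10 genes in this comparison are given as a description. The cells were HUH7, a human hepatocellular carcinoma line. There were 2 libraries, each the single library of its group: RNA precipitated with the anti-ZMAT2 antibody (IP) and RNA of the lysate portion kept as Input. A rabbit IgG control named in the labels is not among the 2 libraries, so no value here separates RNA bound to ZMAT2 from RNA recovered in other ways. The labels name no genotype or treatment that separates the 2 libraries.

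Monocarboxylate transporters carry lactate, pyruvate and ketone bodies across the plasma membrane, the best known of them together with a proton. They leave the endoplasmic reticulum with a partner of the immunoglobulin superfamily, mostly basigin, without which they do not reach the cell surface. Liver cells use them to take up lactate for glucose synthesis and to release ketone bodies, while glycolytic tumour cells use them to release lactate. Other members of the family carry amino acids, thyroid hormone, carnitine or drugs and do not transport lactate.

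Reads in genes numbered 25047635 in the IP and 23485789 in Input. ZMAT2 itself, in CPM (reads of a gene per 1000000 scaled reads), was at 1514 (IP) and 212.9 (Input). All 9 hepatocyte and hepatocellular carcinoma markers looked at were counted in both libraries, and their summed level was 14414 CPM (IP) and 20024 CPM (Input). Markers of other cell types were low but not all absent. The summed level was 6.58 CPM (IP) and 7.18 CPM (Input) for 4 immune markers, 5.67 and 3.78 CPM for 4 fibroblast and stellate markers, and 10.8 and 14 CPM for 3 endothelial markers. Most of these reads were in PECAM1 (252 IP and 341 Input reads), CD68 (159 and 174), PDGFRB (75 and 57) and COL3A1 (58 and 30), while VWF had 10 and 0, ACTA2 4 and 5 and PTPRC 0 and 1. CD68 shares 85.8% of its exon bases with other genes, so its reads cannot be assigned to it alone. COL1A1, CDH5 and CD3E were at 0 in both libraries. Counts were scaled by TMM over the 17915 genes that reached 20 reads when both libraries were added, which centres the ratios near 0 (median log2 ratio 0.0059) and gives no absolute recovery. Each log2 ratio is IP over Input, with a 95% counting interval in parentheses. A gene was called higher or lower when the ratio passed 2-fold and this interval excluded 0. Without replicates no test was possible, and every ratio compares a single pair of libraries.

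Of the lactate transporter genes, SLC16A7 was called lower in the IP, SLC16A1 stood at a log2 ratio of -0.97, short of the call, and SLC16A3 at 0.29. Of the 10 genes, 3 were called lower (SLC16A6, SLC16A7 and SLC16A10) and 0 higher. By the same rule, 6.96% of all 17915 genes were called lower and 7.41% higher, or 4.84% and 6.71% of the 12955 protein-coding genes, and since the genes were chosen through this comparison the count is not read further. Scaled by library totals instead, which shifted the median of all genes by -0.106, SLC16A1 and SLC16A9 also passed 2-fold and the count was 5. The same scaling changed the calls over all genes from 1328 higher and 1247 lower to 1023 higher and 1561 lower. The median log2 ratio of the 10 genes was -0.57, beside 0.0059 for all genes, and 6 of the 10 lay below 0, as did 49.7% of all genes. All 10 passed the minimum of 20 reads, with 30 reads (SLC16A4) to 11329 reads (BSG) in both libraries together.

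**Figure D1:**
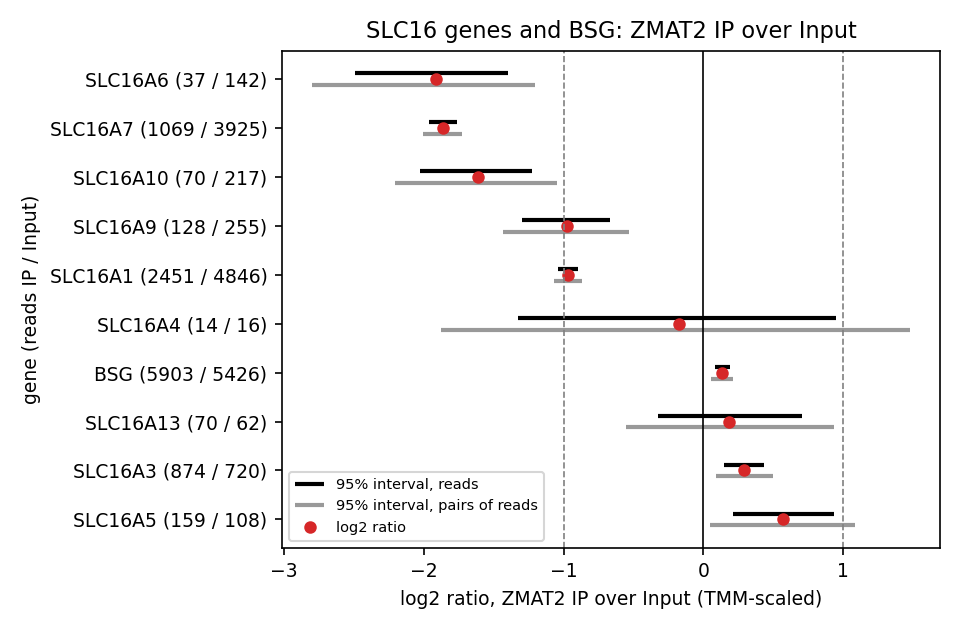
Log2 ratio of IP over Input for each gene, with 95% counting intervals on reads (black) and on pairs of reads (grey), read counts beside the names and dashed lines at 2-fold. SLC16A6, SLC16A7 and SLC16A10 lie wholly left of the lower 2-fold line, SLC16A9 and SLC16A1 sit on it, and SLC16A5 lies farthest to the right at 0.57.

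SLC16A7 encodes MCT2, a transporter with high affinity for pyruvate and lactate, and lies on the plus strand of chromosome 12 at 59596067 to 59789855 (GRCh38, the build of the files). Its 1069 IP reads and 3925 Input reads corresponded to 44.3 and 161 CPM. The Input library was thus the higher one, 3.64-fold, with a log2 ratio of -1.86 (-1.96 to -1.77). None of its exon bases is shared with another gene of the table. It had the lowest ratio of the 6589 protein-coding genes that reached 1000 reads, and, with fewer reads allowed, 77 of the 12955 protein-coding genes kept (0.594%) were lower. Next to it in that order came EPT1 at -1.71, SLCO4C1 at -1.69, MAL2 at -1.63 and CNIH1 at -1.61. Since SLC16A7 was chosen as the lowest of these genes, the next 4 are also the nearest to it in ratio by construction, at absolute differences of 0.158 to 0.251 on the log2 scale. EPT1 encodes an ethanolamine phosphotransferase of the endoplasmic reticulum, SLCO4C1 an organic anion transporter, MAL2 a membrane protein of transcytosis and CNIH1 a cargo receptor between endoplasmic reticulum and Golgi. The interval of EPT1, -1.82 to -1.59, overlapped that of SLC16A7, as did those of SLCO4C1, which began at -1.89, and, barely, MAL2, which began at -1.77. EPT1 shares 5.95% and MAL2 5.89% of their exon bases with other genes.

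Where transcription of SLC16A7 can start is shown here because the gene has 2 annotated starts that differ in base composition, and counts per gene do not tell them apart. Each window holds 250 bases before and 50 bases after a RefSeq start (GRCh38.p14, plus strand), with every CG dinucleotide in capitals. The window of SLC16A10, the other called gene for which one was at hand, is set beside them.
SLC16A7, outer start, chr12:59595779-59596078: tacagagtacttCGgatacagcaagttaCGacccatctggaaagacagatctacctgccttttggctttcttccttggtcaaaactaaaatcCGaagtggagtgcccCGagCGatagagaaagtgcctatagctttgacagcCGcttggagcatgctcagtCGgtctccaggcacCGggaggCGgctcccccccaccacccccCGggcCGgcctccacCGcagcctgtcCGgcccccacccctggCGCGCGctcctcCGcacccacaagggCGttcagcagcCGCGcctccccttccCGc
SLC16A7, inner start, chr12:59689120-59689419: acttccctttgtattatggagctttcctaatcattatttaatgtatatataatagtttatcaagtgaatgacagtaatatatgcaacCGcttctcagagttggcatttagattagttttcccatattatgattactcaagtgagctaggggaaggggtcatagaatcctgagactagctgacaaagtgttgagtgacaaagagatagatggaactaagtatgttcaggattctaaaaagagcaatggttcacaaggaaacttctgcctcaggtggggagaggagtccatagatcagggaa
SLC16A10, chr6:111087253-111087552: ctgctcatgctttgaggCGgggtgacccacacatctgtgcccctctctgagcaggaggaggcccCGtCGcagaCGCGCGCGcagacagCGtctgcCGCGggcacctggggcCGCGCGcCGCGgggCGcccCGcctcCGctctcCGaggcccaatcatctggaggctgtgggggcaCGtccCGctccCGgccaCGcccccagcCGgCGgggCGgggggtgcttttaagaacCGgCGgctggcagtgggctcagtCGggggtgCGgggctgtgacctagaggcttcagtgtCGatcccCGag

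The outer SLC16A7 window was 62.7% G and C with 21 CG dinucleotides, while the inner one was 38% G and C with 1. The SLC16A10 window was 73% G and C with 32. The median over all 35116 windows of the table was 58.7% with 14 CG dinucleotides. Windows were found for 6 of the 10 genes. In GC content the window of SLC16A10 was above 86.4% of all windows, the outer SLC16A7 window above 60.3% and the inner one above 8.1%. Across 10674 protein-coding genes, which are not independent, the rank correlation of window GC content with the ratio was 0.147.

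SLC16A1 encodes MCT1, the widely expressed carrier of lactate, pyruvate and ketone bodies, and lies on the minus strand of chromosome 1 at 112911847 to 112957013. It had 2451 IP reads and 4846 Input reads, 101 and 199 CPM, and a log2 ratio of -0.97 (-1.04 to -0.90), short of the 2-fold call. The log2 difference of SLC16A7 against SLC16A1 was -0.89 (-1.01 to -0.77), a description whose direction the choice of SLC16A7 had fixed. The antisense gene SLC16A1-AS1 shares 3.29% of the SLC16A1 exon bases and had 55 and 84 reads, a log2 ratio of -0.59 (-1.12 to -0.09). Both counts are small beside those of SLC16A1. Counted in pairs of reads, the interval of SLC16A1-AS1, -1.38 to 0.11, included 0.

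SLC16A3 encodes MCT4, the low-affinity transporter by which glycolytic cells release lactate, and lies on the plus strand of chromosome 17 at 82228397 to 82261129. It had 874 IP reads and 720 Input reads, 36.2 and 29.6 CPM, and a log2 ratio of 0.29 (0.15 to 0.44), within 2-fold. CSNK1D shares 5.36% of the SLC16A3 exon bases on the opposite strand and had 2556 and 1693 reads and a log2 ratio of 0.61 (0.52 to 0.70), and the part of these reads in the SLC16A3 count was not tested. The IP over Input ratio of SLC16A3 stood above that of SLC16A1 by 1.26 (1.10 to 1.42) on the log2 scale. SLC16A13, which encodes a transporter named MCT13, lies at 7036075 to 7040121 on chromosome 17 and had 70 and 62 reads. Its log2 ratio of 0.19 (-0.33 to 0.70) had an interval that included 0, and centring on genes of like span turned it to -0.05.

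BSG encodes basigin, also called CD147, the chaperone of MCT1 and MCT4, and lies on the plus strand of chromosome 19 at 571277 to 583493. It had 5903 IP reads and 5426 Input reads, 244 and 223 CPM, and a log2 ratio of 0.13 (0.08 to 0.19), which became -0.02 when centred on genes of like span. The mRNA of the chaperone and that of its client MCT1 were thus at unequal proportions in the 2 libraries. There were 1.12 BSG reads for each SLC16A1 read in Input and 2.41 in the IP, a log2 difference of SLC16A1 against BSG of -1.10 (-1.19 to -1.02). For the client MCT4 the same difference was 0.16 (0.00 to 0.31), and counted in pairs of reads its interval, -0.06 to 0.38, included 0. For SLC16A7 against BSG it was -2.00 (-2.11 to -1.89), again with its direction fixed by the choice of SLC16A7.

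SLC16A6 encodes MCT7, which in zebrafish lets hepatocytes release the ketone body beta-hydroxybutyrate, and lies on the minus strand of chromosome 17 at 68267026 to 68291267. It had 37 IP reads and 142 Input reads and the lowest log2 ratio of the 10 genes, -1.91 (-2.49 to -1.40). It shares 3.55% of its exon bases with ARSG on the opposite strand. SLC16A10, on chromosome 6 at 111087503 to 111231194, encodes TAT1, a carrier of aromatic amino acids and thyroid hormone, and had 70 and 217 reads and a log2 ratio of -1.61 (-2.03 to -1.22). SLC16A9, on chromosome 10 at 59650761 to 59736002, encodes MCT9, described as a carnitine transporter. It had 128 and 255 reads and a log2 ratio of -0.98 (-1.30 to -0.67). At these depths SLC16A6, SLC16A7 and SLC16A10 could not be ranked: SLC16A7 differed from SLC16A6 by 0.06 (-0.48 to 0.64) and from SLC16A10 by -0.24 (-0.65 to 0.18). Nor could SLC16A9 be set apart from SLC16A1, with a difference of -0.01 (-0.34 to 0.31).

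SLC16A5 encodes MCT6, which carries drugs such as bumetanide, and lies on chromosome 17 at 75087727 to 75106162. It had 159 IP reads and 108 Input reads and the highest log2 ratio of the 10 genes, 0.57 (0.21 to 0.94), within 2-fold. It could not be set apart from SLC16A3, with a log2 difference of SLC16A3 against SLC16A5 of -0.28 (-0.67 to 0.11). SLC16A4, on chromosome 1 at 110362848 to 110391082, encodes MCT5, a transporter without a settled substrate. It had 14 and 16 reads and a log2 ratio of -0.17 (-1.33 to 0.95), an interval that holds a 2-fold lower ratio as well as no difference. Taking 2 reads as 1, because mates appear to have been counted singly, left all 3 calls in place. The upper interval bounds in pairs were -1.73 for SLC16A7, -1.21 for SLC16A6 and -1.05 for SLC16A10.

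**Figure D2:**
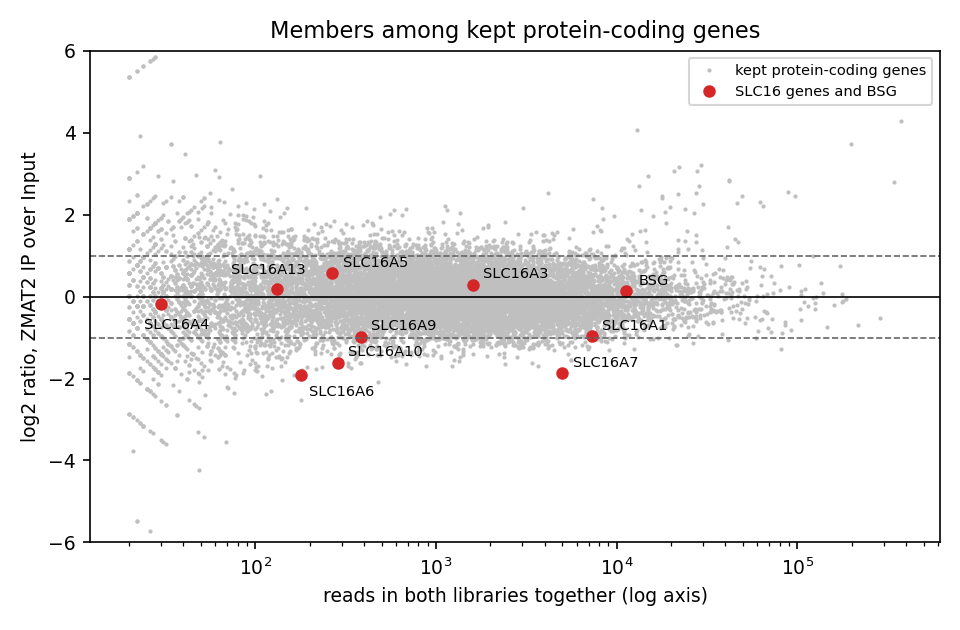
Log2 ratio against reads in both libraries together (log axis) for protein-coding genes with at least 20 reads (grey) and the 10 genes (red), with dashed lines at 2-fold. SLC16A7 lies at the lower edge of the cloud at 4994 reads, SLC16A6 and SLC16A10 lie below the 2-fold line at fewer reads, and 1 gene is beyond the plotted range.

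Levels were compared between genes in RPKM (reads per kilobase of merged exon length, scaled like CPM), with 95% Poisson intervals. In Input, BSG was highest at 58.2 RPKM (56.6 to 59.7), followed by SLC16A1 at 37.4 (36.4 to 38.5) and SLC16A7 at 11.8 (11.4 to 12.2). SLC16A3 at 3.29 RPKM and SLC16A9 at 2.36 RPKM came next. SLC16A6 at 1.44 RPKM, SLC16A5 at 1.44 RPKM and SLC16A13 at 1.22 RPKM had overlapping intervals. SLC16A10 at 0.793 RPKM and SLC16A4 at 0.207 RPKM were last. MCT1 was therefore the best represented transporter mRNA of the family in these cells, at a level above 92.6% of protein-coding genes in Input, and SLC16A4 was above 6.35%. In the IP, SLC16A3 at 4.02 RPKM (3.76 to 4.30) stood above SLC16A7 at 3.24 RPKM (3.05 to 3.44). This exchange rests on the division by merged exon length, which for SLC16A7 is 13665 bases, since in CPM SLC16A7 stayed above SLC16A3 in the IP, at 44.3 against 36.2. BSG at 63.8 RPKM and SLC16A1 at 19.1 RPKM were the highest there too, and SLC16A6, SLC16A10 and SLC16A4 were last at 0.377, 0.258 and 0.183 RPKM.

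**Figure D3:**
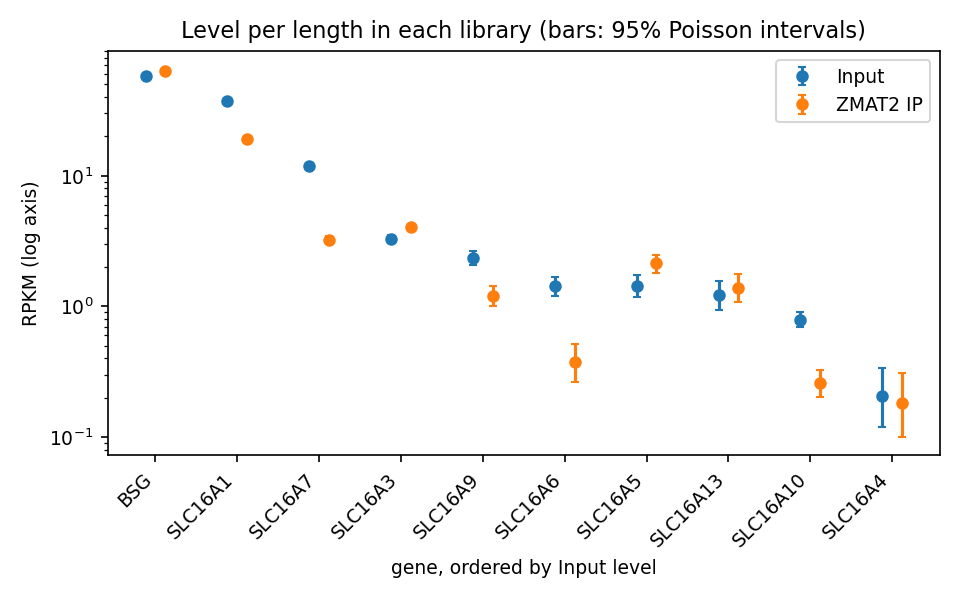
Level of each gene in RPKM (log axis) in Input (blue) and the IP (orange), with 95% Poisson intervals, ordered by Input level. The 2 points of BSG and of SLC16A3 lie close together, whereas SLC16A7 is at 11.8 in Input and at 3.24 in the IP, below SLC16A3.

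The make-up of the family's reads, which does not depend on the scaling between libraries, is given as a description. All 14 SLC16 genes in the table together had 4900 IP reads and 10354 Input reads. SLC16A1 made up 50% of them in the IP (exact interval 48.6% to 51.4%) and 46.8% in Input (45.8% to 47.8%). As a share of the family's summed RPKM the order was the other way, 59.2% in the IP and 61.7% in Input, so no direction is given for SLC16A1. SLC16A7 made up 21.8% of reads in the IP (20.7% to 23%) and 37.9% in Input (37% to 38.9%), or 10% and 19.4% of the summed RPKM. The choice of SLC16A7 for its low ratio had fixed this direction. Shares add up to the whole, so the smaller share of SLC16A7 raises those of the other genes. SLC16A3 had the larger share in the IP, 17.8% (16.8% to 18.9%) against 6.95% in Input (6.47% to 7.46%), or 12.5% against 5.42% of the summed RPKM. SLC16A5 also had a larger share in the IP, 3.24% against 1.04%.

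The remaining SLC16 genes were hardly counted. SLC16A12, a creatine transporter gene, had 8 IP reads and 26 Input reads and a log2 ratio of -1.63 (-3.04 to -0.50). SLC16A14, with 8 and 22 reads, stood at -1.39 (-2.82 to -0.23). Both were called lower, but neither call held when reads were counted in pairs. SLC16A11 had 10 and 10 reads and a log2 ratio of 0.01 (-1.41 to 1.43). SLC16A8, known from the retinal pigment epithelium, had 2 and 3 reads, a log2 ratio of -0.47 (-4.15 to 2.55).

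Gene structure was compared because the 10 genes differ widely in it. Exons were merged over all annotated transcripts, so the longest uninterrupted exon block need not lie in one transcript. SLC16A7 had 13665 bases of merged exons, of which 1 block of 10433 bases made up 76.3%. This block was longer than the longest block of 98.9% of the protein-coding genes kept. SLC16A10 had a block of 9192 bases, 81.8% of its 11237 exon bases. SLC16A6, which was just as low, had a longest block of 2321 bases, close to the 2319 bases of SLC16A1. SLC16A3, with a block of 4207 bases, was above 0, and BSG, SLC16A5, SLC16A4 and SLC16A13 had blocks of 860 to 1145 bases. Over the 10 genes the rank correlation of the log2 ratio was -0.66 with the longest block and -0.59 with the gene's span on the chromosome. SLC16A7, chosen for its low ratio, has the longest block and span of the 10, so these values carry that choice and are a description. Over the 12955 protein-coding genes the correlations with block and span were -0.20 and -0.20. With merged exon length the correlation was -0.55 over the 10 genes and -0.07 over the protein-coding genes. All points come from the same 2 libraries, and neither genes nor members are replicates. Among the 1296 protein-coding genes in the top 10% of longest block, the median log2 ratio was -0.29. Of these, 8.64% were called lower, beside 4.84% of all 12955 protein-coding genes. Called higher were 41 of the 1296, beside 6.71% of all 12955. The share called lower was 4.71% in the top 10% of merged exon length and 6.4% in the top 10% of gene span. In the top 10% of gene span, to which SLC16A7 belongs with 193789 bases, 11 of 1296 genes had a lower ratio than SLC16A7. Centred on genes of like span its log2 ratio was -1.75.

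**Figure D4:**
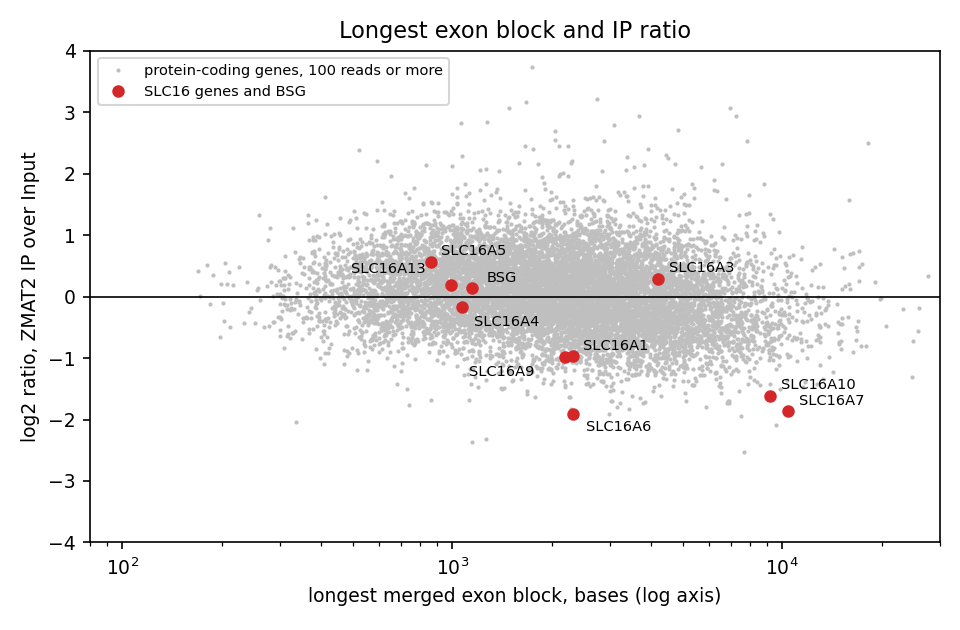
Log2 ratio against the longest merged exon block in bases (log axis) for protein-coding genes with at least 100 reads (grey) and the 10 genes (red). SLC16A7 and SLC16A10 lie at the far right at 10433 and 9192 bases and low, SLC16A6 is as low at 2321 bases, and 3 grey genes are beyond the plotted range.

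Set beside other solute carriers, low ratios were not limited to the SLC16 genes. Of the 12 SLC16 genes kept, 5 were called lower and 0 higher, and their median was -0.97 on the log2 scale. Of all protein-coding genes kept, 4.84% were called lower and 6.71% higher. Of the 5 SLC16 genes called lower, SLC16A12 and SLC16A14 lost the call in pairs of reads. Other genes were taken where the name was SLC, a family number, the letter A and a member number. Genes with another letter in place of the A were left out. Of the 213 other protein-coding genes so taken, 33 were lower (15.5%) and 7 higher (3.29%), with a median of -0.18. Without the 41 genes of the SLC25 family, which encode carriers of the mitochondrial inner membrane, 32 of 172 were lower (18.6%) and the median was -0.27. The SLC25 genes themselves had 1 lower (2.44%) and 3 higher (7.32%) and a median of 0.09. Among genes with at least 100 reads, 3 of 8 SLC16 genes and 24 of 178 other SLC genes (13.5%) were lower. With the minimum for all genes set at 100 reads and the scaling redone, 582 of 13718 genes of any biotype were called lower. Under this naming, the remaining families with at least 8 genes kept had medians from -0.49 to 0.03. A family with genes under other letters may be missing. Lower were 4 of 9 SLC7 genes (median -0.37), 2 of 9 SLC38 genes (-0.49), 2 of 10 SLC2 genes (-0.08), 2 of 11 SLC6 genes (0.03), 1 of 9 SLC22 genes (-0.27) and 1 of 11 SLC39 genes (-0.26). SLC7 and SLC38 encode amino acid transporters, SLC2 sugar transporters and SLC39 zinc transporters. The difference between these families was not tested, and the SLC16 set was chosen for 1 of its low members.

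The partners of basigin gave values on both sides of 0. The basigin family and surface partner list had 11 of 12 genes kept and a median log2 ratio of 0.00. Of these, 1 was lower and 0 higher, beside 6.96% and 7.41% of all kept genes, and the count is not read further. The called gene was EMB, which encodes embigin, the relative of basigin that in rat accompanies MCT2. It had 180 IP reads and 374 Input reads, 554 in all, and a log2 ratio of -1.04 (-1.31 to -0.78). NPTN, which encodes the third relative, neuroplastin, had 1760 and 2694 reads and a log2 ratio of -0.60 (-0.69 to -0.51). The IP over Input ratio of embigin mRNA thus stood below that of basigin mRNA, with a log2 difference of BSG against EMB of 1.18 (0.91 to 1.45). PPIA and PPIB, which encode cyclophilins that bind basigin, had the most reads of the list and log2 ratios of 0.16 and 0.19. PPIB shares 27.2% of its exon bases with a gene on the opposite strand.

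Among enzymes and the mitochondrial carrier that handle lactate and pyruvate, 15 of 18 genes were kept, with a median log2 ratio of -0.31. Of these, 1 was higher and 1 lower, beside 7.41% and 6.96% of all kept genes, and the count is not read further. LDHA, which encodes the lactate dehydrogenase subunit that favours lactate formation, had 18581 IP reads and 14271 Input reads and a log2 ratio of 0.39 (0.36 to 0.42). LDHB, which encodes the other main subunit, had 2 IP reads and 0 Input reads, under the 3 reads that a count of 0 allows, so no ratio is given. PC, the pyruvate carboxylase gene of gluconeogenesis, was called higher with 7449 and 3280 reads and a log2 ratio of 1.20 (1.14 to 1.26). PDK4, a kinase that shuts off pyruvate dehydrogenase, was called lower with 14 and 42 reads, at -1.54 (-2.56 to -0.67). Of the 2 subunits of the mitochondrial pyruvate carrier, MPC1 stood at -0.35 and MPC2 at -0.95 (-1.05 to -0.85). PDHA1, which encodes a pyruvate dehydrogenase subunit and had the next most reads after LDHA, stood at 0.30 (0.24 to 0.35). PC shares 10.5% of its exon bases with a gene on the opposite strand, PDHA1 21.3% and MPC2 22.5%. The part of such reads in their counts was not tested.

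Ketone body enzymes had 7 of 8 genes kept and a median log2 ratio of 0.42. Of these, 0 were called, beside 7.41% higher and 6.96% lower of all kept genes. ACAT1, a thiolase gene, and BDH2 had the most reads, with log2 ratios of -0.12 (-0.23 to -0.01) and 0.48 (0.33 to 0.64). Counted in pairs of reads, the interval of ACAT1, -0.27 to 0.04, included 0. Sodium-coupled monocarboxylate transporters and proteins that handle protons, bicarbonate or carbon dioxide had 9 of 11 genes kept with 0 called and a median of 0.00. At those shares of all genes, 0 called in lists this small is not read further. SLC5A12, a sodium-coupled lactate transporter gene of the apical membrane in kidney and gut, had 356 and 581 reads and a log2 ratio of -0.69 (-0.89 to -0.50). SLC4A7, a sodium bicarbonate cotransporter gene, stood at -0.60 (-0.67 to -0.53) and SLC4A2, an anion exchanger gene, farthest from the median of all genes at 0.75 (0.67 to 0.84). SLC4A2 shares 13.8% of its exon bases with genes on the opposite strand.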

How the data were processed

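Read counts per gene were deposited as whole numbers, not normalized, with merged exon length and coordinates, per the file headers. Tools listed in the submitters' processing notes are STAR 2.5.3a, fastp 0.23.4 and edgeR 3.12.1, with build GRCh38. Which program counted the reads, whether it used strand, and from which annotation is not given in the sources. The kit was a stranded mRNA kit, per the labels. Among counts of 1 to 6 reads, 77.9% in the IP and 67.1% in Input were even, so mates appear to have been counted singly and read intervals are too narrow. Reads are not independent molecules, so intervals cover counting error only.

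Counts were scaled by TMM (edgeR 4.0.16, R 4.3.3) over genes with at least 20 reads, with a prior count of 0.5. Intervals are exact Clopper-Pearson intervals of the IP share (scipy 1.17.1), and differences between genes use the exact conditional odds ratio. The calling rule was run on simulated counts of independent reads. That setting holds neither mates counted singly nor spread between libraries, so it does not check the calls made here. With 1 library per group no quasi-likelihood test was possible. Exon bases shared with other genes were computed on either strand. Biotypes and promoter windows are from RefSeq GRCh38.p14. The members and lists were chosen with earlier results of these data known; the SLC family comparison, the promoter and gene structure comparisons and the other SLC16 genes' shares were added after seeing values. Named genes were all members, and from each list every called gene, the 2 with most reads and the one farthest from the median of all genes, plus the 4 protein-coding genes of at least 1000 reads nearest SLC16A7 in ratio. NPTN, LDHB, MPC1, MPC2 and SLC5A12 were named after their values were seen, and SLC16A1-AS1, CSNK1D and ARSG because they overlap a member. A few genes that these rules take are not reported here.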

Additional observations from a re-analysis of the deposited data

How the results depend on the processing

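Scaling, the minimum of reads, the prior count, pairs of reads and centring on exon length or gene span were varied. SLC16A6, SLC16A7 and SLC16A10 were called lower under all 9 of these settings, with log2 ratios of -2.02 to -1.87, -1.97 to -1.75 and -1.72 to -1.46. For SLC16A7 the values farthest from the reported one were -1.97 with library totals and -1.75 centred on genes of like span. With library totals, 5 of the 10 genes were called lower, 2 genes of the basigin list and 2 of the lactate and pyruvate list, the whole table being shifted by -0.106. With a fold of at least 1.5, 5 of the 10 genes were called lower, beside 3196 higher and 2868 lower of all genes. A minimum of 1 read gave 2004 higher and 2013 lower of all genes and one of 100 reads 761 and 582, with 0 lower in the lactate and pyruvate list because PDK4 had too few reads, and SLC16A4 left out. Counted in pairs, 0 of the other SLC16 genes were called. Without division by length, SLC16A7 was still at rank 3 in Input but went from rank 4 to rank 3 in the IP, above SLC16A3, and SLC16A10 went from rank 9 to rank 6 in Input. No paired analysis was possible because each group holds 1 library. None of the called member ratios changed sign under these settings. Depth limits SLC16A4, SLC16A13 and the other SLC16 genes most.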
